A study of Mus musculus with 18 samples.

Results

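Collagens are the main structural proteins of the extracellular matrix, and each collagen molecule is a triple helix of chains that are encoded by separate genes. The genes described here are those whose symbol on the array had the form of a collagen chain (Col, a type number, a and a chain number). There were 40 such genes of 16887 named genes, measured by 41 of 22575 array features; 39 chains had 1 feature and Col14a1 had 2, which were averaged. RefSeq lists 44 mouse symbols of this form, and Col27a1, Col28a1, Col6a3 and Col6a5 were not analysed here. By class there were 10 fibrillar chains, 6 type IV (basement membrane) chains and 24 other chains.

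The arrays compared RNA from primary mammary tumours of mice with a whole-mouse RNA reference, tumour in the Cy5 channel and reference in the Cy3 channel, on 18 arrays. Every tumour label named strain FVB, the MMTV promoter, which drives expression in mammary epithelium, and Wnt1, the secreted factor that acts as the oncogene in this model. There were 6 tumours labelled Wnt1 alone, and 4 tumours in each of the groups whose labels add iFGFR1, iFGFR2 or iR2; each group is named here by what its label adds. The labels did not expand these names and stated no age, treatment, mouse line or pooling. The series title names the question as cooperation between FGF receptor and Wnt-1 signalling. The comparisons ask how the collagen chains differed between tumours with a receptor label and those with Wnt1 alone, and among the receptor groups.

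Fibrillar collagens (types I, II, III, V, XI and XXIV) form the fibres of connective tissue and are made largely by fibroblasts. Type IV collagen forms the sheet-like network of basement membranes, which in the mammary gland lies between myoepithelial cells and stroma. The remaining classes decorate fibrils (the FACIT collagens), anchor epithelium to the matrix (types VII and XVII), or form beaded filaments (type VI), short-chain networks (types VIII and X) and basement membrane proteoglycans (types XV and XVIII).

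All values below are deposited log ratios of tumour to reference, read as log2; a difference of 1 is a doubling on that scale. The deposited table does not state the log base or the direction of the ratio, and the direction was taken from the dyes. In every group the mean of 6 luminal epithelial genes lay above 0 (2.35 ± 0.68, SD, n = 6, in Wnt1 tumours) and that of 5 skeletal muscle genes far below (-4.82 ± 0.24, n = 6). A log ratio to a common reference does not rank one gene against another, so levels were compared between tumours within each gene. Column medians lay between -0.02 and 0.01. Fgfr1 was higher in iFGFR1 than in Wnt1 tumours by 1.38 ± 0.18 (SE; limma, adjusted p = 6.7e-05), with all 4 iFGFR1 arrays (1.32 to 2.15) above the 6 Wnt1 arrays (-0.06 to 0.36). Fgfr2 was not called higher in iFGFR2 tumours (difference -0.53 ± 0.24, limma adjusted p = 0.212) or in iR2 tumours (-0.32 ± 0.24, adjusted p = 0.466). No source used here states whether these features lie in transgene sequence, so neither value settles a label. Among the Wnt1 arrays, Wnt1 replicate 3 held the highest value for 16 of 40 chains and 6 of 10 fibrillar chains. Its fibrillar mean was -1.72 against -2.89 to -2.28 on the other Wnt1 arrays. The same array had the highest Wnt1 mean for 9 fibroblast genes (-0.89) and 6 luminal genes (3.55). Arrays of the receptor groups stood out too. Among 4 arrays each, iFGFR1 replicate 4 was highest for 19 of 40 chains and 7 of 10 fibrillar chains. For iFGFR2 replicate 2 these counts were 17 and 7, and for iR2 replicate 1 they were 17 and 6. The fibrillar mean was -2.36 on iFGFR1 replicate 4 against -3.34 to -2.99 on the other iFGFR1 arrays. Results are given without Wnt1 replicate 3 where that matters, and that array was chosen by its collagen values.

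In iFGFR1 tumours 12 of 40 chains (30%) differed from Wnt1 tumours at a limma adjusted p under 0.05 (Benjamini-Hochberg over all 16887 genes), 10 of them lower and 2 higher. Of all genes, 15.4% were called in this comparison, 8.38% higher and 7.06% lower. The chains that fell were Col9a3, Col7a1, Col8a1, Col1a2, Col16a1, Col14a1, Col4a1, Col5a2, Col17a1 and Col18a1, and those that rose were Col4a4 and Col24a1. In iFGFR2 tumours 3 chains (7.5%) differed, Col9a1, Col9a2 and Col4a4, all higher, beside 3.43% of all genes (1.97% higher, 1.46% lower). In iR2 tumours 3 chains (7.5%) differed, Col9a1 and Col9a2 higher and Col22a1 lower, beside 7.1% of all genes (3.91% higher, 3.19% lower). The iR2 count is close to the background of that comparison, and the iFGFR2 count rests on 3 chains: it was 0 without iFGFR2 replicate 1 (0.586% of all genes) and 1 with only the iFGFR2 and Wnt1 arrays in the fit (0.847%). Without Wnt1 replicate 3 the counts were 14 chains in iFGFR1, 4 in iFGFR2 and 3 in iR2 tumours, while the shares of all genes called rose to 18.3%, 8.37% and 11.2%. The iR2 calls became 2 higher and 0 lower after quantile normalization (7.31% of all genes called), 3 higher and 7 lower with arrays scaled to equal spread (20.1%), and 5 higher and 5 lower with array weights (30.8%). The median difference over the 40 chains was -0.28 in iFGFR1, -0.13 in iFGFR2 and -0.22 in iR2 tumours, beside 0.02, 0.01 and -0.05 over all genes. No chain was called in all 3 comparisons, which share the 6 Wnt1 arrays as controls. A test over the 4 groups (limma F test) called 14 chains (35%), beside 19.6% of all genes. Nothing in the labels says that the tumours came from separate mice, so the p-values measure the spread between these samples, part of which may be technical.

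**Figure D1:**
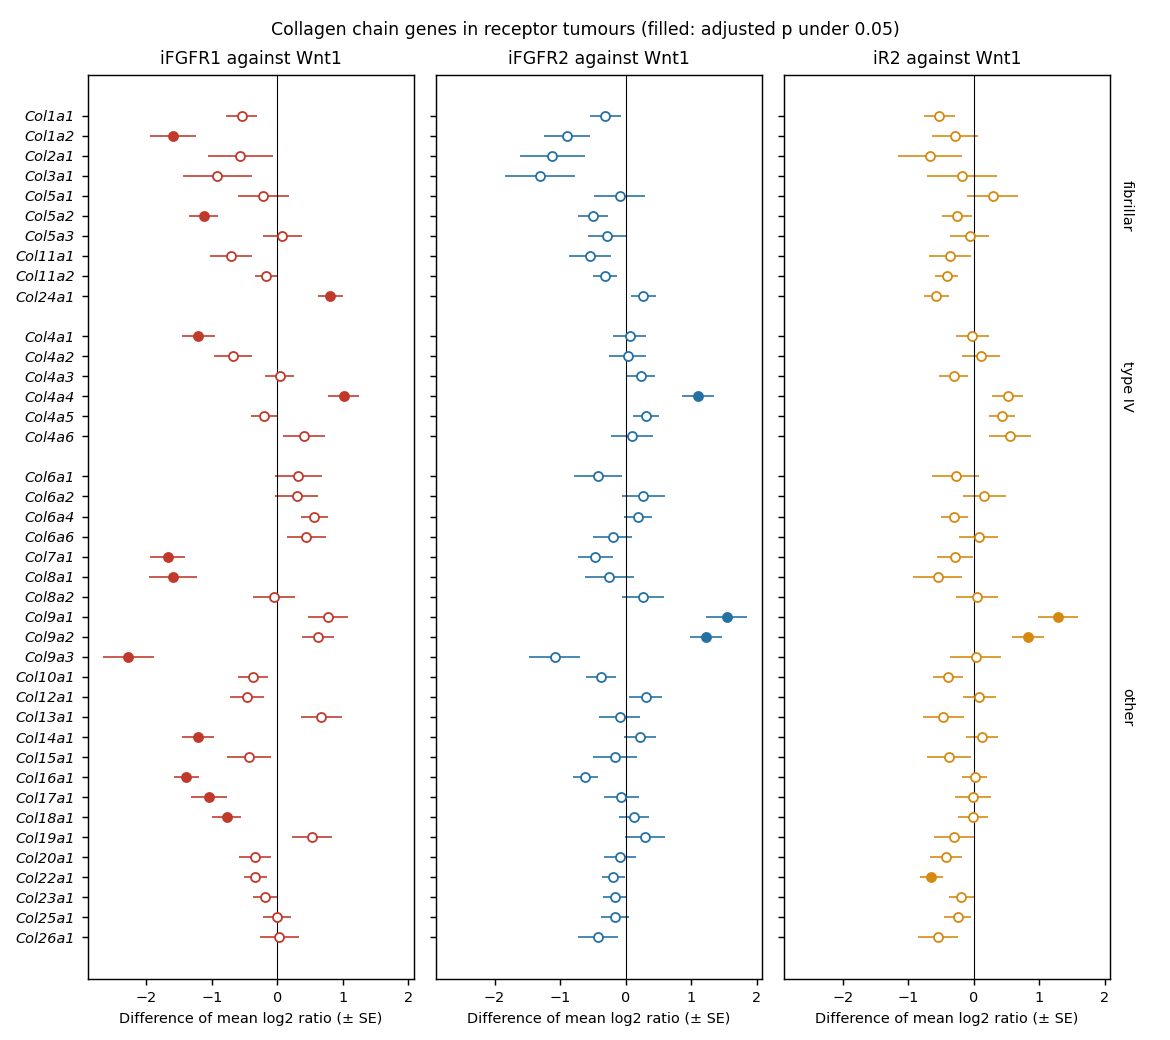
Difference of the mean log2 ratio from Wnt1 tumours (horizontal axis, ± SE from limma) for each of 40 collagen chains, grouped as fibrillar, type IV and other, in iFGFR1, iFGFR2 and iR2 tumours. Filled points had an adjusted p under 0.05: 12 in iFGFR1 tumours, 10 of them left of 0, and 3 each in iFGFR2 and iR2 tumours.

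Among the fibrillar chains, Col1a2 and Col5a2 fell and Col24a1 rose in iFGFR1 tumours, and the other 7 did not pass the test. Col1a2 encodes the α2 chain of type I collagen, the main collagen of connective tissue. It lay between -3.87 and -1.80 (median -3.28) on the 6 Wnt1 arrays and at -4.97, -5.46, -4.28 and -3.90 on the 4 iFGFR1 arrays. Every iFGFR1 array was below every Wnt1 array, the nearest by a small margin, and the difference was -1.59 ± 0.35 (SE; 3.01-fold lower, limma adjusted p = 0.00487). The call was lost when arrays were scaled to equal spread. In iFGFR2 tumours Col1a2 lay between -4.47 and -3.60 and in iR2 tumours between -3.68 and -3.08, both overlapping Wnt1, with differences of -0.89 ± 0.35 (adjusted p = 0.147) and -0.29 ± 0.35 (adjusted p = 0.679). Col1a1, the α1 chain that makes up most of the same molecule, differed by -0.54 ± 0.24 in iFGFR1 (limma adjusted p = 0.13), -0.31 ± 0.24 in iFGFR2 (adjusted p = 0.488) and -0.53 ± 0.24 in iR2 tumours (adjusted p = 0.182). Its arrays ran from -3.25 to -2.03 (median -2.61) in Wnt1, -3.79 to -2.85 in iFGFR1, -3.24 to -2.53 in iFGFR2 and -3.40 to -2.84 in iR2 tumours, so all groups overlapped.

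Type V collagen sits inside type I fibrils and sets their diameter. Its α2 chain, Col5a2, lay between -2.03 and -1.25 (median -1.53) in Wnt1 tumours and at -2.64, -3.46, -2.60 and -2.19 in iFGFR1 tumours. All 4 iFGFR1 arrays were below the 6 Wnt1 arrays, and the difference was -1.13 ± 0.23 (2.18-fold lower, limma adjusted p = 0.0026). The iFGFR2 arrays (-2.37 to -1.80) and iR2 arrays (-2.03 to -1.63) overlapped Wnt1, with differences of -0.50 ± 0.23 (adjusted p = 0.21) and -0.25 ± 0.23 (adjusted p = 0.555). The α1 chain, Col5a1, gave no such difference: -0.21 ± 0.39 in iFGFR1 (95% interval -1.02 to 0.59, limma adjusted p = 0.755), -0.09 ± 0.39 in iFGFR2 and 0.28 ± 0.39 in iR2 tumours. Its Wnt1 arrays spread from -4.78 to -2.33, the highest being replicate 3, and without that array the iFGFR1 difference was 0.14 ± 0.28.

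Col3a1, the single chain of type III collagen in soft connective tissue, ran from -4.86 to -1.11 (median -3.76) on the Wnt1 arrays. Its iFGFR1 arrays were at -5.29, -4.88, -4.76 and -2.71, its iFGFR2 arrays at -4.95, -4.21, -5.04 and -5.00, and its iR2 arrays at -3.64, -3.60, -3.74 and -3.73. The differences from Wnt1 were -0.92 ± 0.53 (limma adjusted p = 0.262), -1.30 ± 0.53 (adjusted p = 0.163) and -0.18 ± 0.53 (adjusted p = 0.886). None passed the test. Wnt1 replicate 3 was the array at -1.11, and without it these differences were -0.44, -0.83 and 0.29. The median over the 10 fibrillar chains in iFGFR1 tumours moved from -0.55 to -0.31 without that array, more than 1.5 times.

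Col24a1, a fibrillar chain found in developing bone and cornea, went the other way. It lay between -2.28 and -1.84 (median -2.15) in Wnt1 tumours and at -1.24, -1.64, -1.11 and -1.18 in iFGFR1 tumours, all above the Wnt1 arrays (0.81 ± 0.19, 1.75-fold higher, limma adjusted p = 0.00716). The iR2 arrays, at -2.36, -3.16, -2.31 and -2.86, were all below the Wnt1 arrays, but that difference of -0.58 ± 0.19 did not pass the test (adjusted p = 0.0689). Of the fibrillar chains not yet given, Col2a1, Col5a3, Col11a1 and Col11a2, none was called in any comparison of the groups with all arrays. Without Wnt1 replicate 3, Col11a1, a chain of the type XI collagen of cartilage fibrils, differed in iFGFR1 tumours by -0.94 ± 0.28 (limma adjusted p = 0.0263), against -0.71 and an adjusted p of 0.142 with all arrays. Over the fibrillar class, 8 of 10 differences were below 0 in iFGFR1 tumours and 9 of 10 in both iFGFR2 and iR2 tumours, with medians of -0.55, -0.41 and -0.33. In iFGFR2 and iR2 tumours limma called 0 fibrillar chains, and 4 and 3 chains had an unadjusted p under 0.05. Without Wnt1 replicate 3 the class medians were -0.31, -0.40 and -0.25, and fewer differences were below 0 in each group. Col5a1 then moved above 0 in iFGFR1 and iFGFR2 tumours (0.14 and 0.26), and Col3a1 and Col5a3 did in iR2 tumours (0.29 and 0.07).

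The 6 type IV chains did not move as one class. Col4a1 and Col4a2 assemble the network found in nearly all basement membranes, Col4a3, Col4a4 and Col4a5 that of the kidney glomerulus and a few other sites, and Col4a5 also pairs with Col4a6. Col4a1 fell in iFGFR1 tumours: the Wnt1 arrays ran from -1.08 to 0.30 (median -0.09) and the iFGFR1 arrays were at -1.58, -1.60, -1.96 and -0.73. Of the 4 iFGFR1 arrays, 3 were below all Wnt1 arrays, and the difference was -1.21 ± 0.25 (2.31-fold lower, limma adjusted p = 0.00352). The iFGFR2 arrays (-0.322 to -0.001) and iR2 arrays (-0.45 to -0.19) lay inside the Wnt1 range, with differences of 0.06 ± 0.25 and -0.02 ± 0.25 (adjusted p = 0.917 and 0.976).

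Col4a2, the partner of Col4a1, lay between -1.05 and 0.52 (median -0.32) in Wnt1 tumours and at -0.99, -1.11, -1.22 and -0.51 in iFGFR1 tumours. Its difference of -0.68 ± 0.29 did not pass the test (limma adjusted p = 0.119), but without Wnt1 replicate 3, the lowest Wnt1 array for both chains, it was -0.84 ± 0.28 with an adjusted p of 0.0421. In RefSeq's annotation of the GRCm38.p6 assembly Col4a1 and Col4a2 start 21 bases apart on opposite strands, and their first bases overlap. Col4a5 and Col4a6 start 1343 bases apart on opposite strands and run away from each other, with a gap between the starts. The iFGFR2 and iR2 differences of Col4a2 were 0.03 ± 0.29 and 0.10 ± 0.29.

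Col4a4 was the type IV chain that rose. It ran from -0.51 to 0.74 (median 0.28) in Wnt1 tumours, and stood at 1.54, 0.54, 1.21 and 1.58 in iFGFR1 tumours, at 1.32, 1.01, 1.55 and 1.36 in iFGFR2 and at 0.76, 0.72, 0.83 and 0.58 in iR2 tumours. All 4 iFGFR2 arrays and 3 of 4 iFGFR1 arrays were above the Wnt1 range. The differences were 1.01 ± 0.24 in iFGFR1 (2.01-fold higher, limma adjusted p = 0.00769), 1.10 ± 0.24 in iFGFR2 (2.15-fold higher, adjusted p = 0.0181) and 0.52 ± 0.24 in iR2 tumours (adjusted p = 0.198). In iFGFR2 tumours the call was lost without iFGFR2 replicate 1 or replicate 3. Its assembly partners did not pass the test in any of the comparisons with Wnt1. Col4a3 differed by 0.04 ± 0.22, 0.23 ± 0.22 and -0.30 ± 0.22 in iFGFR1, iFGFR2 and iR2 tumours, and Col4a5 by -0.20 ± 0.20, 0.31 ± 0.20 and 0.43 ± 0.20.

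Col4a5 lay between 0.14 and 0.71 (median 0.47) in Wnt1 tumours, at 0.22, 0.33, -0.03 and 0.52 in iFGFR1, at 1.48, 0.50, 0.69 and 0.44 in iFGFR2 and at 1.004, 0.83, 0.86 and 0.88 in iR2 tumours. All 4 iR2 arrays were above the Wnt1 range, at a limma adjusted p of 0.19. Col4a3 ran from -1.16 to -0.50 (median -0.67) in Wnt1, -0.92 to -0.55 in iFGFR1, -1.27 to -0.12 in iFGFR2 and -1.59 to -0.69 in iR2 tumours. Col4a6, the chain of epithelial and smooth muscle basement membranes, had values of -0.23 to 1.39 (median 0.68) in Wnt1, 0.42 to 1.31 in iFGFR1, 0.13 to 1.33 in iFGFR2 and 0.39 to 1.67 in iR2 tumours, with differences of 0.41, 0.09 and 0.56, each ± 0.32. The groups overlapped for Col4a3 and Col4a6. In iR2 tumours limma called 0 of 6 type IV chains, and 2 had an unadjusted p under 0.05.

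**Figure D2:**
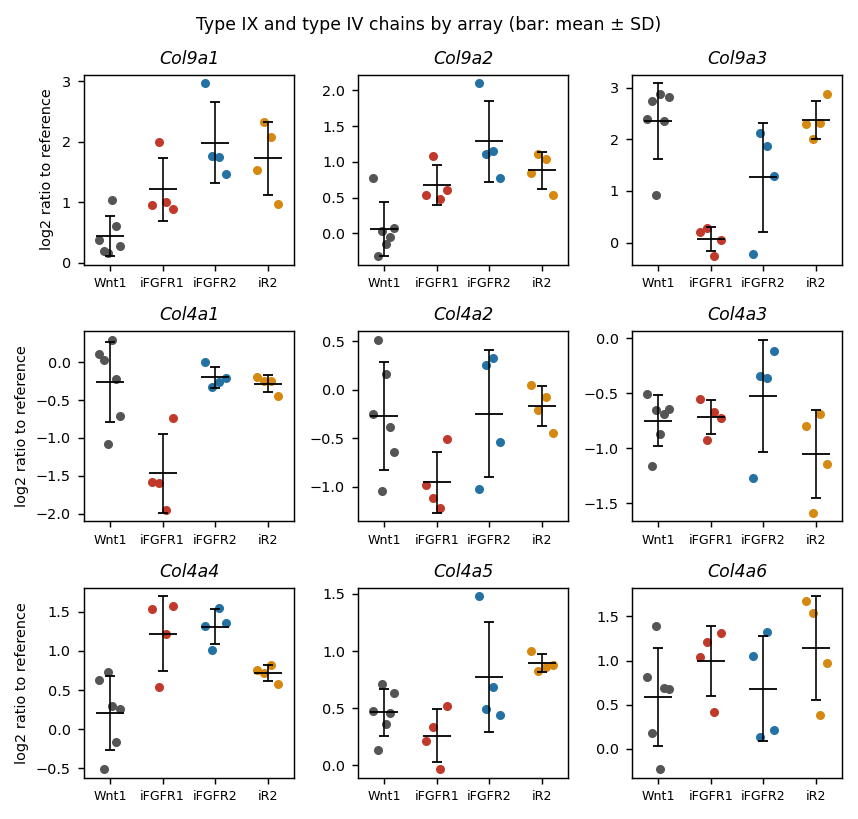
Log2 ratio to the reference (vertical axis) of the 3 type IX chains and the 6 type IV chains on each array, with each point 1 tumour and the bar the mean ± SD of its group (Wnt1 n = 6, others n = 4). The means of Col9a1 and Col9a2 lie higher in the receptor groups while Col9a3 lies lower in iFGFR1 tumours, and Col4a1 lies lower in iFGFR1 tumours while Col4a4 lies higher.

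The 3 chains of type IX collagen split. Type IX is a FACIT collagen that coats cartilage fibrils, and its 3 chains form 1 molecule. Col9a1 and Col9a2 were the chains called in both iFGFR2 and iR2 tumours, and their promoter windows are shown as those of chains that moved together. Each is the 250 bases before a start annotated by RefSeq (GRCm38.p6, plus strand, 5′ to 3′), with capitals marking the CCAAT motif and the GGGCGG motif on either strand; Col9a1 has 2 annotated starts, which its array feature does not tell apart here.
Col9a1, chr1:24177360-24177609: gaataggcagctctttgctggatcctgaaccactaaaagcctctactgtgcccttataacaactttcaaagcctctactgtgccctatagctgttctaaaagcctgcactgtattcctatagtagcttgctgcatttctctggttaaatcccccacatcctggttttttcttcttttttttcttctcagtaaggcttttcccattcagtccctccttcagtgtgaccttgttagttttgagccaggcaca
Col9a1, chr1:24194953-24195202: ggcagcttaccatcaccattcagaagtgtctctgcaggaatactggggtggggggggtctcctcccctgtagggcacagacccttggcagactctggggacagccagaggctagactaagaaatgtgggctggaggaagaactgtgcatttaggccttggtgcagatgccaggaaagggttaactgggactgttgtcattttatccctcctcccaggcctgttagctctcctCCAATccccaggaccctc
Col9a2, chr4:121039316-121039565: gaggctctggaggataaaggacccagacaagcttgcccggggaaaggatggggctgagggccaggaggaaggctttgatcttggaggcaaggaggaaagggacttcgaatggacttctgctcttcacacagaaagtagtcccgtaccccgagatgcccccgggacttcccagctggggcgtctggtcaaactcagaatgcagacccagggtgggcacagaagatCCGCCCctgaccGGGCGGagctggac

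Searched on both strands, CCAAT was in 1 of the Col9a1 windows and GGGCGG in the Col9a2 window, with no motif found in the other Col9a1 window. Of 32851 windows of this length over all genes, 33.8% held CCAAT, 32.7% GGGCGG, 12.4% TATAAA and 6.75% TGANTCA. Of 34 windows for 31 of the collagen chains, 13 (38.2%) held CCAAT, 20 (58.8%) GGGCGG, 5 (14.7%) TATAAA and 1 (2.94%) TGANTCA. A match is a description of the letters and not a site shown to be bound.

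Col9a1 lay between 0.16 and 1.03 (median 0.33) in Wnt1 tumours, at 0.96, 1.997, 1.01 and 0.88 in iFGFR1, at 2.97, 1.76, 1.74 and 1.47 in iFGFR2 and at 1.54, 2.33, 2.07 and 0.96 in iR2 tumours. All 4 iFGFR2 arrays and 3 of 4 iR2 arrays were above the Wnt1 range. It rose by 1.54 ± 0.31 in iFGFR2 (2.92-fold, limma adjusted p = 0.0119) and by 1.29 ± 0.31 in iR2 tumours (2.44-fold, adjusted p = 0.0185). The iFGFR1 difference of 0.77 ± 0.31 did not pass the test (adjusted p = 0.0986). Col9a2 lay between -0.31 and 0.78 (median -0.01) in Wnt1 tumours, at 0.54, 1.08, 0.48 and 0.61 in iFGFR1, at 2.10, 1.11, 1.16 and 0.78 in iFGFR2 and at 0.85, 1.11, 1.04 and 0.54 in iR2 tumours. In both groups 3 of 4 arrays were above the Wnt1 range, whose top was Wnt1 replicate 1. It rose by 1.23 ± 0.24 in iFGFR2 (2.34-fold, limma adjusted p = 0.0118) and by 0.82 ± 0.24 in iR2 tumours (1.77-fold, adjusted p = 0.0463), and the iFGFR1 difference was 0.62 ± 0.24 (adjusted p = 0.0931). Both rises in iFGFR2 tumours lost their call without iFGFR2 replicate 1, the highest array of the group for both chains, with adjusted p of 0.0597 for Col9a1 and 0.0568 for Col9a2. In iR2 tumours Col9a1 lost its call without iR2 replicate 2 or 3, and Col9a2 without any of 10 single arrays, by adjusted p of at most 0.149. Both also lost it with the number in the titles as a covariate.

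Col9a3 had the largest fall of the 40 chains. It lay between 0.91 and 2.87 (median 2.57) in Wnt1 tumours and at 0.21, 0.28, -0.26 and 0.05 in iFGFR1 tumours. All iFGFR1 arrays were below all Wnt1 arrays, by a difference of -2.28 ± 0.39 (4.85-fold lower, limma adjusted p = 0.000745). The iFGFR2 arrays were at -0.23, 2.12, 1.88 and 1.29 (difference -1.08 ± 0.39, adjusted p = 0.118), and the iR2 arrays at 2.30, 2.003, 2.32 and 2.87 (0.03 ± 0.39, adjusted p = 0.982). The lowest Wnt1 array was replicate 3, at 0.91, and without it the iFGFR2 difference was -1.37 ± 0.34 and passed the test (adjusted p = 0.0197). Of 5 cartilage and bone genes measured, Comp, a cartilage matrix protein, rose in iFGFR1 and in iFGFR2 tumours (0.98 ± 0.30 and 1.75 ± 0.30, limma adjusted p = 0.0333 and 0.00559), and the other 4 were not called in either. In iFGFR1 tumours Acan and Ibsp, a bone matrix protein, had differences of 0.41 and 0.26, and Matn1 and Sp7 of -0.11 and -0.17. Acan, the core cartilage proteoglycan, stood at -2.74 ± 0.23 (SD, n = 6) in Wnt1 and -2.33 ± 0.23 (n = 4) in iFGFR1 tumours (adjusted p = 0.138). The mean of the 5 genes was -2.17 ± 0.05 (SD, n = 6) in Wnt1 tumours. It was -1.90 ± 0.10 in iFGFR1 tumours, -1.78 ± 0.12 in iFGFR2 tumours and -2.55 ± 0.21 in iR2 tumours (n = 4 each). This mean was higher on every iFGFR1 array (-1.98 to -1.77) than on every Wnt1 array (-2.23 to -2.11), and its part in the type IX results was not tested.

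Of the other FACIT chains, Col16a1 and Col14a1 fell in iFGFR1 tumours and Col22a1 fell in iR2 tumours. Col16a1, which associates with fibrils and microfibrils, ran from 0.71 to 1.17 (median 0.96) in Wnt1 tumours and stood at -0.10, -0.60, -0.75 and -0.40 in iFGFR1 tumours. The groups did not overlap, and the difference was -1.39 ± 0.19 (2.63-fold lower, limma adjusted p = 9.03e-05). It was the chain with the smallest adjusted p in this comparison. All 4 iFGFR2 arrays (-0.23, 0.55, 0.38 and 0.55) were also below the Wnt1 range, but the difference of -0.62 ± 0.19 did not pass the test (adjusted p = 0.0694). The iR2 arrays, 0.72 to 1.21, matched the Wnt1 range, with a difference of 0.01 ± 0.19 (95% interval -0.39 to 0.41).

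Col14a1, which binds decorin on fibril surfaces, lay between -1.91 and -0.49 (median -1.25) in Wnt1 tumours and at -2.13, -2.14, -2.39 and -3.16 in iFGFR1 tumours, below every Wnt1 array (-1.21 ± 0.25, 2.32-fold lower, limma adjusted p = 0.00268). Its 2 features had means of -1.99 and -0.49 in Wnt1 and of -3.78 and -1.13 in iFGFR1 tumours, lower in iFGFR1 for both. Col22a1, a collagen of tissue junctions such as muscle to tendon, ran from -2.95 to -2.32 (median -2.50) in Wnt1 tumours and stood at -2.78, -3.30, -3.48 and -3.22 in iR2 tumours. Of the 4 iR2 arrays, 3 were below the Wnt1 range, and the difference was -0.65 ± 0.18 (limma adjusted p = 0.0305). That call was lost without any of 6 single arrays, by an adjusted p of at most 0.132, and the Col22a1 difference was -0.26 after quantile normalization (adjusted p = 0.415) and -1.20 with arrays scaled to equal spread (adjusted p = 0.00268). Col12a1, Col19a1 and Col20a1 were called in no comparison, with differences from Wnt1 between -0.47 and 0.53.

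Type VII collagen forms the fibrils that anchor epithelium to stroma, and type XVII is a transmembrane collagen of hemidesmosomes, the junctions of basal epithelial cells with the basement membrane. Col7a1 and Col17a1 both fell in iFGFR1 tumours, and their windows of 250 bases before the RefSeq start (GRCm38.p6) are shown for that reason, 5′ to 3′ on the strand of the gene, plus for Col7a1 and minus for Col17a1. Capitals mark the CCAAT motif on either strand, the GGGCGG motif and the TATAAA motif.
Col7a1, chr9:108953336-108953585: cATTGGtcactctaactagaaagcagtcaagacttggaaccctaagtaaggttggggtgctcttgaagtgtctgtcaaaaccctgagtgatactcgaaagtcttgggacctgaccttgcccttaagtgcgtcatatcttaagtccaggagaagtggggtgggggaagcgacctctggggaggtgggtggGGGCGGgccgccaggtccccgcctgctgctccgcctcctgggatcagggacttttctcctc
Col17a1, chr19:47692043-47692292: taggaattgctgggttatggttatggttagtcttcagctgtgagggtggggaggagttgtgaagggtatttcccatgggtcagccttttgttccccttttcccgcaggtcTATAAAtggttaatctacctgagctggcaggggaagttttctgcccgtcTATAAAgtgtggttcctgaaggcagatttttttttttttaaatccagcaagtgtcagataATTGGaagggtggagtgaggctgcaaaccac

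Both windows held CCAAT in the reverse orientation, GGGCGG was in the Col7a1 window alone and TATAAA in the Col17a1 window alone. Col7a1 lay between 0.50 and 1.50 (median 1.20) in Wnt1 tumours and at -0.61, -0.05, -0.85 and -0.81 in iFGFR1 tumours. The groups did not overlap, and the difference was -1.67 ± 0.27 (3.19-fold lower, limma adjusted p = 0.000413). The iFGFR2 arrays (0.06 to 1.31) and iR2 arrays (0.35 to 1.47) overlapped Wnt1, with differences of -0.46 ± 0.27 (adjusted p = 0.339) and -0.29 ± 0.27 (adjusted p = 0.573). Col17a1 lay between 1.36 and 1.96 (median 1.64) in Wnt1 tumours and at 1.13, -0.27, 1.21 and 0.32 in iFGFR1 tumours. All iFGFR1 arrays were below the Wnt1 range, by a wide margin for replicates 2 and 4 and a narrow one for replicates 1 and 3 (difference -1.05 ± 0.27, 2.07-fold lower, limma adjusted p = 0.0139). The iFGFR2 and iR2 differences were -0.06 ± 0.27 and -0.01 ± 0.27.

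Genes of basal and myoepithelial cells, the mammary cells that rest on the basement membrane, moved in the same comparison. Of 8 such genes, Krt14, Krt5 and Oxtr fell and Acta2 rose in iFGFR1 tumours; Krt14, the basal keratin, fell by 1.69 on the log2 scale (limma adjusted p = 0.00199), from 1.69 ± 0.45 (SD, n = 6) to 0.002 ± 0.35 (n = 4). The mean of the 8 genes ran from -0.81 to 0.21 on the Wnt1 arrays and from -1.23 to -0.99 on the iFGFR1 arrays, without overlap. Its part in the Col7a1 and Col17a1 results was not tested.

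Col8a1, a short-chain collagen of vessel walls and Descemet's membrane, lay between 1.01 and 2.89 (median 1.60) in Wnt1 tumours and at -0.84, -0.03, 0.87 and 0.68 in iFGFR1 tumours, below every Wnt1 array (-1.60 ± 0.37, 3.02-fold lower, limma adjusted p = 0.00697). Its partner Col8a2 differed by -0.06 (adjusted p = 0.929). Col18a1, whose C-terminal fragment is endostatin, ran from -0.42 to 0.29 (median -0.08) in Wnt1 tumours and stood at -0.93, -1.45, -0.27 and -0.65 in iFGFR1 tumours. Of these, 3 arrays were below the Wnt1 range, and the difference was -0.78 ± 0.23 (1.71-fold lower, limma adjusted p = 0.0244). That call was lost without Wnt1 replicate 4, iFGFR1 replicate 1 or iFGFR1 replicate 2, by an adjusted p of at most 0.0845. Among endothelial genes 1 of 8, Eng, fell in iFGFR1 tumours, and the mean of the 8 was -0.88 ± 0.35 in Wnt1 and -0.86 ± 0.30 in iFGFR1 tumours.

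**Figure D3:**
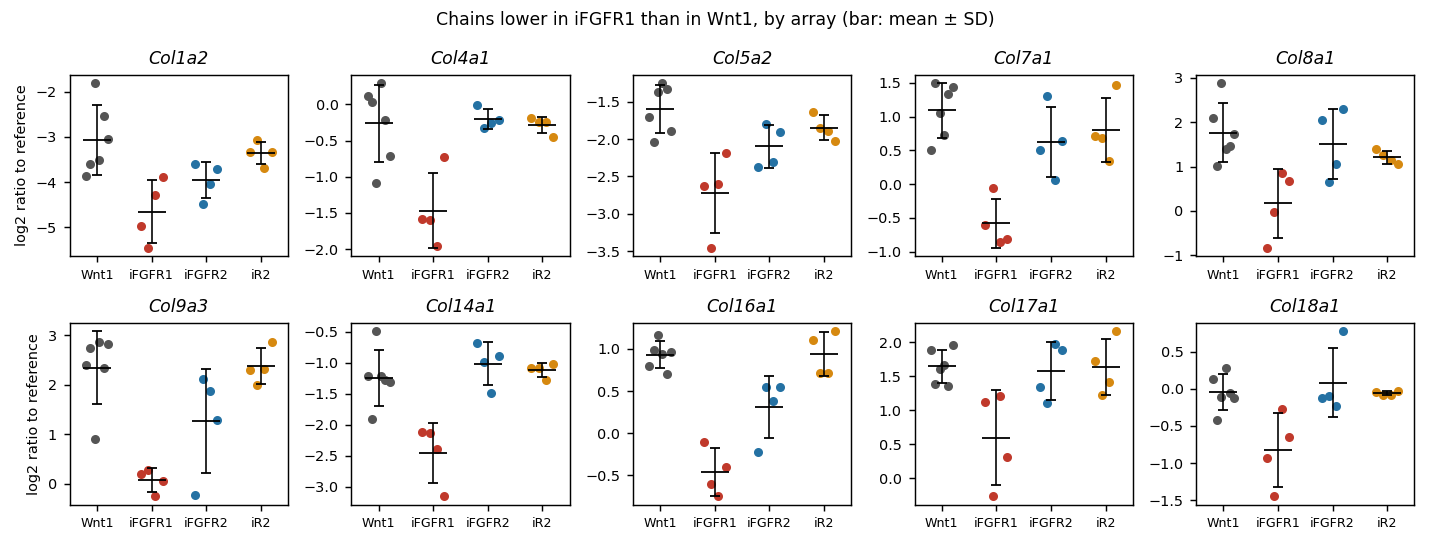
Log2 ratio to the reference (vertical axis) on each array for the 10 chains that were lower in iFGFR1 than in Wnt1 tumours, with each point 1 tumour and the bar the mean ± SD of its group (Wnt1 n = 6, others n = 4). For 8 of the 10 chains all 4 iFGFR1 arrays lie below all 6 Wnt1 arrays, and the exceptions are Col4a1 and Col18a1, with 3 of 4. The chains were chosen by their fall on these same arrays, so this separation adds no support of its own. The share of all genes without overlap was not counted.

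The remaining chains gave no call against Wnt1. The type VI chains Col6a1, Col6a2, Col6a4 and Col6a6, which form beaded filaments, differed in iFGFR1 tumours by 0.29 to 0.57, in iFGFR2 by -0.42 to 0.27 and in iR2 by -0.30 to 0.16. Here limma called 0 of 4, with 1, 0 and 0 chains at an unadjusted p under 0.05. The transmembrane chains Col13a1, Col23a1 and Col25a1, the short chains Col8a2 and Col10a1, and Col15a1 and Col26a1 were not called against Wnt1 either. In all, 23 of 40 chains were called in none of the 7 pairwise or pooled comparisons or the F test.

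With the 3 receptor groups averaged and set against Wnt1, 8 chains (20%) were called, beside 12.5% of all genes (6.9% higher, 5.62% lower). Col9a1 (1.20 ± 0.24, limma adjusted p = 0.00356), Col9a2 (0.89 ± 0.19, adjusted p = 0.00556) and Col4a4 (0.88, adjusted p = 0.00532) were higher. Col9a3 (-1.11 ± 0.30, adjusted p = 0.0211), Col1a2, Col7a1, Col16a1 and Col5a2 were lower, by 0.63 to 1.11. In each of the 5 the iFGFR1 difference was the largest of the 3, and the iR2 difference was between -0.29 and 0.03. Without Wnt1 replicate 3 the count was 10, with Col1a2 lost and Col11a1, Col22a1 and Col4a1 added, beside 16.8% of all genes. Scaling the arrays to equal spread gave 3 higher and 3 lower (12% of all genes), and leaving out Wnt1 replicate 6 left 5 calls (7.25%). With the number in the titles as a covariate none of the 8 calls was left, beside 3.9% of all genes called.

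Set directly against each other, iR2 and iFGFR1 tumours differed in 12 chains (30%), beside 11.7% of all genes (4.81% higher, 6.84% lower in iR2). In iR2 tumours 9 were higher: Col9a3 by 2.30 ± 0.43 (limma adjusted p = 0.00196), Col16a1 by 1.40 ± 0.21 (adjusted p = 0.000303), Col7a1 by 1.38, Col14a1 by 1.33, Col1a2 by 1.30, Col4a1 by 1.19, Col17a1 by 1.04, Col5a2 by 0.87 and Col18a1 by 0.76. Col24a1 (-1.38 ± 0.21, adjusted p = 0.000333), Col13a1 (-1.14 ± 0.34, adjusted p = 0.0365) and Col6a4 (-0.86 ± 0.23, adjusted p = 0.0208) were lower in iR2 tumours. This comparison shares its iFGFR1 arrays with the comparison of iFGFR1 with Wnt1. The split of 9 higher and 3 lower became 8 and 10 when arrays were scaled to equal spread (21.6% of all genes called) and 9 and 1 after quantile normalization (9.88%). With scaling Col1a2 differed by 0.20 and Col5a2 by 0.28, and both calls were lost, while Col14a1 moved to 0.85, Col13a1 to -1.88 and Col6a4 to -1.45 and stayed called. Col13a1 and Col6a4 lost their calls after quantile normalization and with the number in the titles as a covariate. Col13a1 was kept in 7 of 9 other settings and without 12 of 18 single arrays. Col6a4 was kept in 5 of the 8 settings that tested it and without 16 of 18 single arrays. The Col18a1 call, at a limma adjusted p of 0.0496, was kept in 2 of 9 other settings and without 4 of 18 single arrays, and was lost without Wnt1 replicate 3 (adjusted p = 0.0508). With the number in the titles as a covariate 3 calls were left (1.57% of all genes), and leaving out iR2 replicate 1 or replicate 2 left 7 (7.92% and 6.94%).

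Col24a1 separated these groups fully, with the iFGFR1 arrays between -1.64 and -1.11 and the iR2 arrays between -3.16 and -2.31. Col13a1, a transmembrane collagen of cell junctions, stood at -1.73, -1.80, -2.04 and -1.18 in iFGFR1 and at -2.65, -2.63, -3.24 and -2.78 in iR2 tumours, also without overlap. Its Wnt1 arrays (-3.24 to -1.60) overlapped both groups, and the iFGFR1 array at -1.18 lay above them. Both chains were chosen by their calls on these same arrays, so their separation adds no support of its own. Col6a4 stood at -1.51, -1.87, -1.80 and -0.75 in iFGFR1 and at -2.29, -2.82, -2.03 and -2.23 in iR2 tumours, and its Wnt1 arrays ran from -2.25 to -1.72.

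Between iFGFR2 and iFGFR1 tumours 3 chains (7.5%) were called, beside 2.13% of all genes (1.21% higher, 0.924% lower), all higher in iFGFR2: Col14a1 by 1.44 ± 0.27 (limma adjusted p = 0.00621), Col4a1 by 1.27 ± 0.28 (adjusted p = 0.0194) and Col7a1 by 1.21 ± 0.29 (adjusted p = 0.0358). In each, all 4 iFGFR2 arrays were above all 4 iFGFR1 arrays, for Col7a1 by a small margin (0.06 against -0.05). These chains were chosen by their calls on the same arrays, so the separation adds no support of its own. The share of all genes that separate in this way was not counted. With only these 8 arrays in the fit none of the 3 chains was called, beside 0.42% of all genes. The Col7a1 call was kept in 5 of 9 other settings and without 11 of 18 single arrays. For Col9a3, Col8a1 and Col1a2 the difference between these groups did not pass the test (1.20 ± 0.43, 1.35 ± 0.41 and 0.70 ± 0.38; adjusted p = 0.165, 0.0928 and 0.383), so these chains are not shown to differ between the 2 receptor groups. Between iR2 and iFGFR2 tumours 1 chain (2.5%), Col24a1, was called, lower in iR2 by -0.85 ± 0.21 (limma adjusted p = 0.0455), beside 1.34% of all genes (0.272% higher, 1.07% lower), and the call was lost without any of 12 single arrays. The Col24a1 difference was -0.51 after quantile normalization (adjusted p = 0.265) and -1.52, still called, with arrays scaled to equal spread.

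For chains that assemble with each other, deviations from the group means were correlated over the 18 arrays in 12 pairs, with 100000 permutations within groups and Benjamini-Hochberg adjustment over the pairs. Of these, 3 pairs had an adjusted permutation p under 0.05 by Pearson's r. Col6a1 with Col6a2 gave r = 0.783 (p = 0.00502, adjusted 0.0398; Spearman 0.544, p = 0.0419, adjusted 0.103), and r = 0.550 without the 2 arrays farthest from the median of Col6a1. Col9a1 with Col9a2 gave r = 0.680 (permutation p = 0.00994, adjusted 0.0398; Spearman 0.662, p = 0.00931, adjusted 0.0559), and r = 0.433 without the 2 farthest arrays. Col4a5 with Col4a6 gave r = 0.601 (permutation p = 0.00733, adjusted 0.0398; Spearman 0.616, p = 0.00717, adjusted 0.0559), and r = 0.647 without the 2. For Col4a1 with Col4a2 r was 0.574 (permutation p = 0.0208, adjusted 0.0624; Spearman 0.509, p = 0.0386, adjusted 0.103), and r = 0.373 without the 2. For Col9a2 with Col9a3 it was -0.471 (permutation p = 0.117, adjusted 0.201; Spearman -0.470, p = 0.0831, adjusted 0.142), and -0.240 without the 2. Arrays share hybridization and labelling differences, so such values can also reflect the array.

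The genes that make, process and bind collagen were counted in 6 lists, to be read beside the shares of all genes called: 15.4% in iFGFR1 (8.38% higher, 7.06% lower), 3.43% in iFGFR2 and 7.1% in iR2 tumours. These shares hold for the marker lists too. Of 18 genes for collagen biosynthesis, 3 fell and 1 rose in iFGFR1 tumours (22.2%, beside 15.4% of all genes). Serpinh1, the collagen chaperone HSP47, was -0.18 ± 0.24 (SD, n = 6) in Wnt1 and -1.78 ± 1.004 (n = 4) in iFGFR1 tumours (difference -1.59 ± 0.38, SE; limma adjusted p = 0.00776). P3h3, of the prolyl 3-hydroxylase family, fell by 1.21 ± 0.18 (adjusted p = 0.000185) and Colgalt2, a collagen galactosyltransferase, by 1.27 ± 0.21 (adjusted p = 0.000524), while Creb3l1, a transcription factor of collagen secretion, rose by 0.50 ± 0.15 (adjusted p = 0.0313). In iFGFR2 tumours 1 of 18 was called, the prolyl 4-hydroxylase subunit P4ha2 (-1.25 ± 0.34, limma adjusted p = 0.0454). In iR2 tumours limma called 0 of 18, and 4 had an unadjusted p under 0.05. Of 12 genes for propeptide cleavage and crosslinking, 1 fell in iFGFR1 tumours: Pcolce2, a procollagen C-proteinase enhancer, by 1.55 ± 0.32 (limma adjusted p = 0.00308). None was called in iFGFR2 or iR2 tumours by limma, where 3 and 1 had an unadjusted p under 0.05.

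Of 17 proteins that bind fibrils, 5 fell and 1 rose in iFGFR1 tumours (35.3%, beside 15.4% of all genes). Fbln1 (-1.83 ± 0.21, limma adjusted p = 1.55e-05), Fbln2 (-1.23 ± 0.19) and the small proteoglycans Dcn (-1.79 ± 0.41) and Lum (-1.87 ± 0.50) fell, as did Sparc (-0.89 ± 0.22), and Comp rose. In iFGFR2 tumours 1 of 17 rose (Comp) and in iR2 tumours 1 fell (Fbln1, -1.34 ± 0.21, limma adjusted p = 0.00213). Of 17 basement membrane partners, Nid1 (-0.99 ± 0.28), Lamc1 (-0.80 ± 0.23), Lama5 (-0.77 ± 0.19) and Agrn (-0.67 ± 0.22) fell in iFGFR1 tumours, and Npnt, an integrin ligand of basement membranes, rose by 1.88 ± 0.39 (limma adjusted p = 0.00293). Npnt also rose in iFGFR2 tumours (1.44 ± 0.39, adjusted p = 0.0442), the 1 call there, and in iR2 tumours limma called 0 of 17, with 2 at an unadjusted p under 0.05.

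Of 10 collagen receptors, Itga11, the integrin subunit for fibrillar collagen on fibroblasts, fell in iFGFR1 tumours by 2.52 ± 0.38 (limma adjusted p = 0.000217), from 0.77 ± 0.71 (SD, n = 6) to -1.75 ± 0.23 (n = 4), and the other 9 were not called. In iFGFR2 and iR2 tumours limma called 0 of 10, with 0 and 1 at an unadjusted p under 0.05. Of 13 genes for collagen breakdown and its inhibitors, the gelatinase Mmp2 (2.30 ± 0.65, limma adjusted p = 0.0219) and the collagenase Mmp13 (0.85 ± 0.22, adjusted p = 0.0123) rose in iFGFR1 tumours. The membrane-bound collagenase Mmp14 (-1.72 ± 0.39, adjusted p = 0.00618) and the inhibitor Timp3 (-1.87 ± 0.39, adjusted p = 0.00313) fell. In iFGFR2 and iR2 tumours limma called 0 of 13, with 6 and 5 at an unadjusted p under 0.05.

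Markers of fibroblasts, the main makers of fibrillar collagen, were counted on the same arrays. Of 9 fibroblast genes that are no collagens, Pdgfra, Pdgfrb, Dcn, Lum, Thy1 and Fbln1 fell in iFGFR1 tumours and none rose; Dcn, Lum, Fbln1 and Mfap5 are also in the list of fibril partners. Pdgfra, a receptor of fibroblasts, stood at -1.92 to -0.67 in Wnt1 and -3.83 to -3.32 in iFGFR1 tumours (-2.61 ± 0.28, limma adjusted p = 8.33e-06). The mean of the 9 genes ran from -1.88 to -0.89 on the Wnt1 arrays, from -2.99 to -2.44 on the iFGFR1 arrays, from -2.40 to -1.94 on the iFGFR2 arrays and from -2.15 to -1.98 on the iR2 arrays, so no receptor array reached the Wnt1 range. In iFGFR2 and in iR2 tumours 1 of the 9 was called, Pdgfrb (-1.19 ± 0.28, limma adjusted p = 0.0252) and Fbln1, both lower. The lower list mean in iR2 tumours did not hold for every member: 7 of the 9 differences were below 0. Pdgfra stood at -0.74 ± 0.20 (SD, n = 4) in iR2 tumours, above its Wnt1 mean of -0.97 ± 0.48 (n = 6). In bulk tumours fewer cells of a type and less RNA per cell cannot be told apart, and the part of fibroblast content in the collagen results was not tested.

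Of the other cell types, the luminal genes Krt18, Krt8 and Epcam rose in iFGFR1 tumours (3 of 6), with a list mean of 3.31 ± 0.34 against 2.35 ± 0.68 in Wnt1 tumours. Krt18 stood at 2.59 ± 0.77 (SD, n = 6) in Wnt1 tumours and, with n = 4 each, at 3.56 ± 0.32 in iFGFR1 tumours, 3.29 ± 0.34 in iFGFR2 tumours and 3.77 ± 0.22 in iR2 tumours. Pericyte genes (0 of 5 called), adipocyte genes (0 of 4), skeletal muscle genes (0 of 5) and leukocyte genes (0 of 4) were not called in iFGFR1 tumours by limma, with 3, 0, 1 and 1 genes at an unadjusted p under 0.05. The first genes of these lists, Rgs5, Adipoq, Ckm and Ptprc, differed by 0.09, -0.03, 0.79 and 0.15, and the endothelial gene Pecam1 by 0.11. These do not stand for their lists: the median difference was -0.39 over the pericyte genes (3 of 5 below 0, Mcam at -0.70) and -0.08 over the leukocyte genes (3 of 4 below 0, Lyz2 at -0.84). It was 0.07 over the adipocyte, 0.19 over the muscle and 0.07 over the endothelial genes. In iFGFR2 tumours the luminal gene Kit was the other marker called beside Pdgfrb and Comp, and it rose. In iR2 tumours Acta2, Krt18 and Kit rose, and Fbln1, the cartilage gene Matn1 and the T cell gene Cd3e fell.

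**Figure D4:**
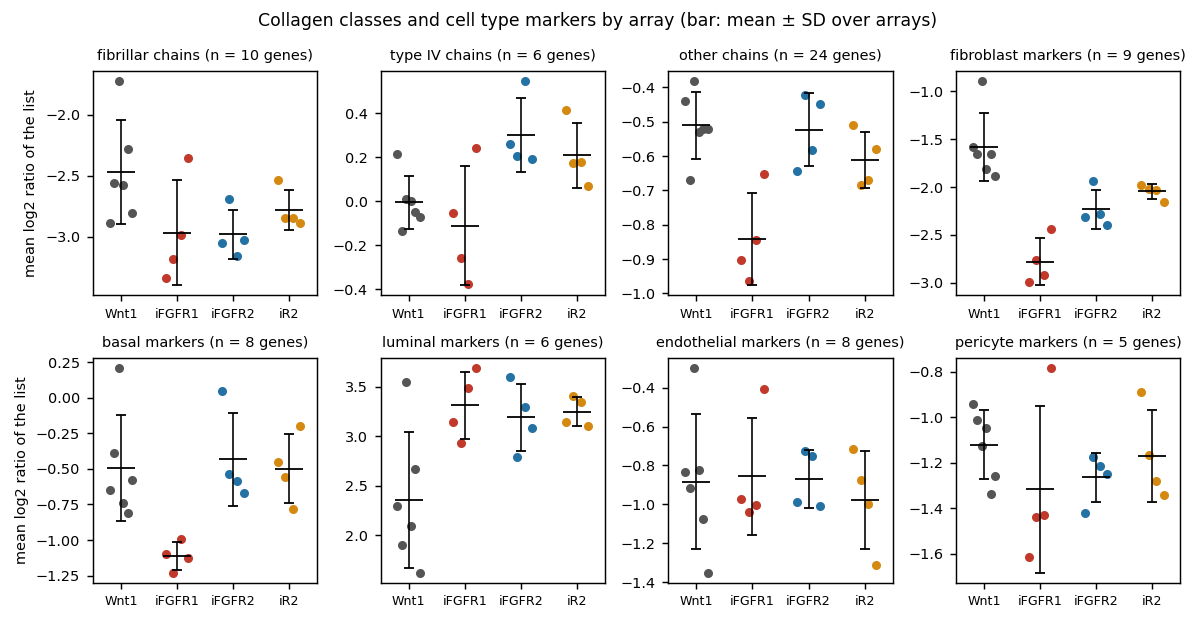
Mean log2 ratio to the reference (vertical axis) over the genes of each collagen class and of 5 cell type marker lists on each array, with each point 1 tumour and the bar the mean ± SD over arrays (Wnt1 n = 6, others n = 4). The fibroblast mean lies lower on all 12 receptor arrays than on the 6 Wnt1 arrays, the basal mean lies lower in iFGFR1 tumours, and the endothelial means overlap.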

How the data were processed

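Values are the deposited log ratios, read as log2 (base and direction are not stated in the deposited table), of 18 two-colour arrays; no source used here gives the authors' normalization. Per the labels' protocols, reference RNA was isolated with TRIZOL and tumour RNA with a Qiagen kit. Of 22575 features, 18658 had 1 platform symbol, 30 had several and 3887 had none; features of 1 symbol were averaged, giving 16887 genes with no empty value. Of all columns of per-sample values, 0 were left unused. Collagen symbols were matched to RefSeq tables of the GRCm38.p6 assembly, which gave the promoter windows.

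Group means were compared in 1 fit of all 18 arrays (limma 3.58.1, R 4.3.3, lmFit and eBayes, no covariates), in 7 comparisons and an F test, two-sided, with Benjamini-Hochberg adjustment over 16887 genes within each and a threshold of 0.05; intervals are 95%. Depth does not apply to arrays, and their number limits the precision. The fit was tested on simulated data with 200 changed genes among 16887. For iFGFR1 against Wnt1 it recovered 57% of log2 changes of 1 and 99% of changes of 2. It recovered 55% and 98% for iFGFR2, and 55% and 94% for iR2, and called 9, 6 and 7 unchanged genes. The simulated noise was normal, independent between genes and equal in spread across groups, and fewer genes changed than were called in the data. These percentages hold for that setting and do not give the recovery in the data. The members, classes and lists were chosen with earlier results of these data known. Described one by one were chains called in any test, Col1a1, Col1a2, Col3a1, Col5a1, Col5a2 and the type IV chains; from other lists, at most 6 called genes by F test and the first gene of a marker list. Alternatives were centring, quantile normalization, scaling, array weights, the variance prior, the feature per gene, a variance filter, the arrays in the fit, the title number as covariate and leaving out each array.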

Additional observations from a re-analysis of the deposited data

Results flagged for a closer look

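Within groups of 4 or 6 arrays, 24 chains were examined for an array whose gap to its neighbour took most of the group's range (Dixon's test at 95%), and 6 of 96 groups of values had one; chance sets apart about 1 in 20 groups. Col5a1 in Wnt1 replicate 3 was at -2.332, against -4.777 to -3.903 on the other 5 arrays, and Col9a3 in the same tumour was at 0.913, against 2.348 to 2.868. Col9a2 in Wnt1 replicate 1 was at 0.777, against -0.309 to 0.072. Col9a1 in iFGFR1 replicate 2 was at 1.997, against 0.88 to 1.009. Col3a1 in iFGFR2 replicate 2 was at -4.208, against -5.036 to -4.945, and Col18a1 in iFGFR2 replicate 4 was at 0.774, against -0.232 to -0.097.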

How the results depend on the processing

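Of 42 chain calls over the 7 comparisons, 13 held in all 9 other settings and without each of the 18 arrays, and none of the 42 changed direction in any. With iFGFR1 against Wnt1 the settings gave 11 to 13 calls, beside 12, and called 11% to 24.5% of the genes tested, beside 15.4%. When the number in each title was added as a covariate, 21 of the 42 calls held. The iR2 titles carry the highest numbers, so number and group are hard to tell apart there. The counts were then 0 for iR2 against Wnt1 (0.308% of all genes called) and 0 for the mean of the receptor groups (3.9%). They were 3 for iR2 against iFGFR1 (1.57%) and 0 for iR2 against iFGFR2 (0.0118%). With arrays scaled to equal median absolute deviation the counts were 10 for iR2 against Wnt1 (20.1% of all genes called), 1 for iFGFR2 against iFGFR1 (0.971%), 11 for iR2 against iFGFR2 (2 higher, 9 lower; 12.1%) and 22 for the F test (29%). Array weights gave 10 for iR2 against Wnt1 (30.8%) and 0 for iR2 against iFGFR2 (6.74%). For that last comparison quantile normalization, the robust and trended prior and a filter that kept the more variable genes each gave 0. The shares of the genes tested that they called were 0.13%, 1.02% and 1.98%. The variance filter gave 1 for iR2 against Wnt1 (9.8%). With only the compared arrays in the fit, iFGFR2 gave 1 call against Wnt1 (0.847% of all genes) and 0 against iFGFR1 (0.42%). The cause of these changes in calls was not tested. The interquartile range of the log ratios over all genes was 0.83 to 0.92 on the iR2 arrays and 0.84 to 1.04 on the Wnt1 arrays. It was 0.897 to 1.135 on the iFGFR1 arrays and 0.947 to 1.239 on the iFGFR2 arrays, and its part in the iR2 results was not tested. Leaving out 1 array gave 11 to 14 calls for iFGFR1 against Wnt1, with 10.4% to 18.3% of all genes called. For iFGFR2 it gave 0 to 5 (0.586% to 8.7%), with 0 without iFGFR2 replicate 1 and 5 without iFGFR2 replicate 2. For iR2 it gave 0 to 3 (1.79% to 11.2%), with 0 without iR2 replicate 2 or 3 and 1 without Wnt1 replicate 2 or 6. For the mean of the 3 it gave 5 to 10 (7.23% to 16.8%), with 5 without Wnt1 replicate 6. The counts were 2 to 4 for iFGFR2 against iFGFR1 (1.08% to 3.14%) and 7 to 14 for iR2 against iFGFR1 (6.94% to 13.8%). They were 0 to 1 for iR2 against iFGFR2 (0.113% to 1.93%) and 12 to 16 for the F test (13.5% to 24.6%). No paired analysis was possible because the labels give no replicate numbers shared between groups. Detection calls and spot intensities were not used here, so dim features were not filtered.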
